A study of Mus musculus with 28 samples.

Results

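The comparison described here is between germ cells of Stra8 knockout (KO) and wild-type (WT) mice before any retinoic acid was given, the 0 h point of a time course. It holds the 0 h columns of both count tables, which are 2 KO and 2 WT libraries, or 4 of the 28 libraries of the series. Per the labels, both genotypes derive from C57BL/6 x 129s4/SvJae, and all 4 samples carried a PIWIL2-eGFP reporter and received WIN 18,446 over 7 days with no later injection. WIN 18,446 blocks the synthesis of retinoic acid. Cells positive for the reporter were sorted from the testis. The other groups of the series were injected with retinoic acid and collected 12 to 120 h later, and the series follows spermatogonia on their way to meiosis. The age of the mice, the number of animals behind a sample, the promoter of the reporter and the design of the knockout allele are not given in the labels. Nothing in the labels says that replicates come from different animals. The p-values below therefore measure the spread among the libraries, and that spread could be technical only.

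Spermatogonia are the mitotic germ cells of the testis. Undifferentiated spermatogonia include the stem cells and express factors such as Zbtb16, Gfra1 and Nanos2. Retinoic acid moves them to the differentiating state, in which the receptor tyrosine kinase Kit rises, and Stra8 encodes a retinoic acid responsive protein that germ cells need for meiosis. When retinoic acid synthesis is blocked in young mice the cells are held before this step, and an injection of retinoic acid releases them together.

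The 0 h libraries held 4084460 to 9507928 reads in genes, and mitochondrially encoded genes took 1.98 to 6.26% of them. WT replicate 1 stood apart in several features. Lars2, a mitochondrial leucyl-tRNA synthetase gene, was at 9071 CPM of the library total there and at 265 to 419 in the other 3 libraries. The nuclear non-coding RNA Malat1 was at 1464 against 363 to 451. Yam1 was at 18709 against 2474 to 4463 and Mir6236 at 174 against 3.28 to 14.4. The ribosomal-type feature n-R5-8s1 was at 26.9 against 0.979 to 1.47. Whether the reads of these features, Lars2 included, come from the named genes was not tested. Across the 17519 genes tested, log2 levels in the WT pair correlated at 0.96 and in the KO pair at 0.97, and WT replicate 2 correlated with KO replicate 2 at 0.97. These correlations are across genes, which are not independent replicates. Of 11896 genes with at least 5 CPM (reads of a gene scaled to a fixed library total) in a group, 544 differed more than 2-fold between the WT libraries and 223 between the KO libraries. The means of the genotypes differed more than 2-fold for 159. A mean of 2 libraries has less noise than 1 library, so this count is not like those within a genotype. Against WT replicate 1, 557 genes differed more than 2-fold in KO replicate 1 and 393 in KO replicate 2. Against WT replicate 2 the counts were 789 and 333. Single libraries of different genotype thus differed in more genes than the KO pair did, and in more or fewer than the WT pair.

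Stra8 itself checks the labels. It lies on chromosome 6 at 34920163 to 34939344 (GRCm38, plus strand). The WT libraries had 67 and 94 reads of it, and the KO libraries had 9 and 7. In CPM, scaled here and below to TMM-adjusted totals, this was 7.52 and 15.8 in WT and 0.944 and 1.66 in KO. Both KO libraries were below both WT libraries, and neither KO library was at 0. The log2 difference, KO minus WT, was -3.24 ± 1.13 (SE), with an adjusted p of 0.71 in edgeR's quasi-likelihood test with Benjamini-Hochberg adjustment, so Stra8 did not pass the threshold of 0.05 at 0 h. At 12 h the WT libraries held 722 and 1049 CPM and the KO libraries 31 and 26. Over 12, 18 and 48 h the log2 difference was -4.14 ± 0.48 and passed (adjusted p = 5.9e-05, edgeR). The 0 h difference did not differ from the later one by a test of the difference itself (0.89 ± 1.39, adjusted p = 0.89, edgeR).

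Before retinoic acid no gene passed the test between KO and WT. Of the 17519 genes tested, 0 (0%) had an adjusted p under 0.05, and 1193 (6.81%) had an unadjusted p under 0.05. The smallest adjusted p was 0.71 in edgeR. DESeq2 also called 0 genes, with 978 at an unadjusted p under 0.05 and a smallest adjusted p of 0.365. The 1193 genes were split into 598 higher (3.41%) and 595 lower (3.4%) in KO. With no filter on low counts, edgeR called 73 genes, 21 higher and 52 lower, all of them among the genes of the filtered fit and Stra8 and Foxn4 among them. In 42 of those 52 genes, WT replicate 1 had the highest level of the 4 libraries. Fewer cells of a type and less RNA per cell cannot be told apart in these bulk libraries, here or in any result below.

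**Figure D1:**
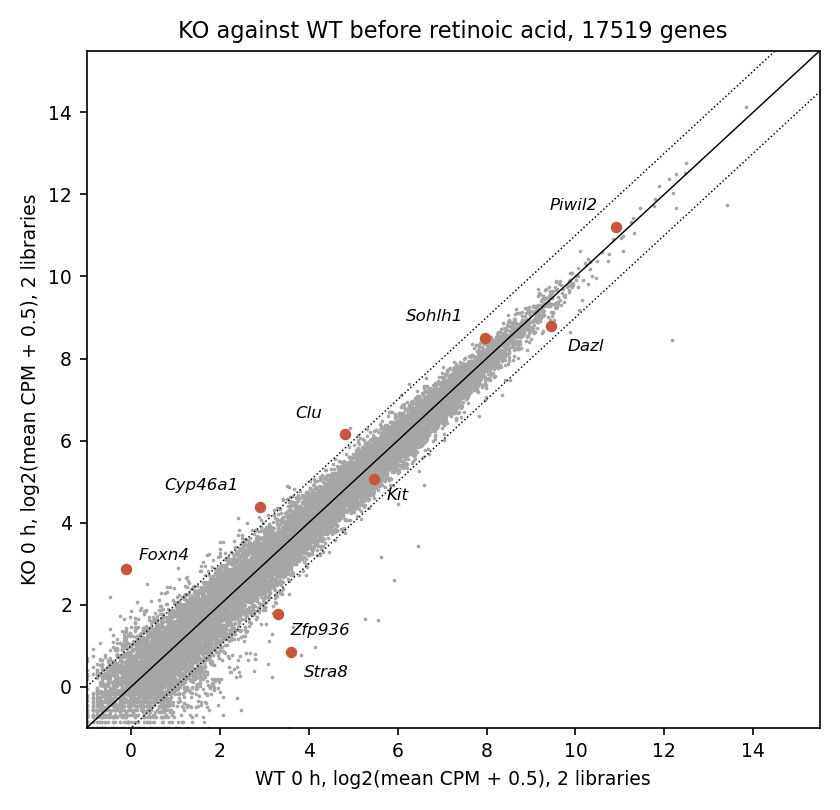
Mean level of each of 17519 genes in the 2 WT (x axis) and 2 KO (y axis) libraries at 0 h, as log2(mean CPM + 0.5). The solid line marks equal levels and the dotted lines a 2-fold difference. Most genes lie between the dotted lines, with Stra8 below them and Foxn4 above, and no gene passed the test.

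The libraries limit which differences could have been seen. Among genes with at least 5 CPM in a group the median standard error of the log2 difference was 0.27, and 65.9% of them had a 95% confidence interval that lay within a 2-fold difference in either direction. At 50 CPM or more this share was 84.5%. In data simulated from gene means and dispersions of all 28 libraries, 96 tested genes were changed 2-fold and 100 were changed 4-fold. Of these, 24% and 64% were recovered. Recovery depends on how many genes are changed, and other numbers were not tried. Among changed genes at a mean of 5 CPM or more these shares were 32.9% and 92.4%, and 4 unchanged genes were called. The simulation held no trend with GC content and no deviation shared between libraries, so recovery in the real data may be lower. In this simulation 2-fold differences at single genes were thus mostly not recovered. Recovery was not split by level above 5 CPM, and at 50 CPM or more the median standard error was lower, at 0.21.

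The genes with the smallest p in KO's favour include a transcription factor, enzymes and a transporter. All of them missed the threshold with an adjusted p of 0.71 (edgeR). They were picked among genes with at least 5 CPM in a group and no overlap between the groups. Their lack of overlap is thus a condition of the choice and not a result. Foxn4, a forkhead factor known from neural progenitors, was at 0.337 and 0.503 CPM in WT and at 3.46 and 10.2 in KO. The log2 difference was 3.92 ± 0.87, with the KO libraries well apart from each other. Over both genotypes Foxn4 rose by 12 h, to 65.7 and 63.2 CPM in WT and 40.2 and 72.9 in KO, where the groups overlapped. Cyp46a1, a cholesterol hydroxylase, was at 6.17 and 7.88 CPM in WT and 21.6 and 19 in KO (1.54 ± 0.40). C1ql1, a secreted C1q-like protein, was at 9.99 and 12.6 in WT and 32.3 and 25.4 in KO (1.37 ± 0.34). Both had KO libraries well above the WT pair. Ppt2, a lysosomal thioesterase, Stk16 and Tesk1, a pair of protein kinases, and Spns2, which exports sphingosine-1-phosphate, had log2 differences of 1.19, 0.89, 0.80 and 0.78. When each library's trend with GC content was taken out, a correction described below, Tesk1 went to 0.41, Spns2 to 0.49 and Slc9a3r2, below, to 0.56. Foxn4 went to 3.66, Cyp46a1 to 1.24, C1ql1 to 0.91, Ppt2 to 0.93 and Stk16 to 0.78. Ppt2, Stk16 and Tesk1 share exon bases with a neighbouring gene, so their reads may be mixed. Slc9a3r2, a scaffold of membrane transporters, was at 23.1 and 17.1 CPM in WT and 35.8 and 41.1 in KO. Its log2 difference of 0.92 ± 0.24 at 0 h was followed by 1.82 over 12, 18 and 48 h, where it passed (adjusted p = 1.7e-08, edgeR).

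Among the genes with the smallest p in the other direction, the levels were mostly low, and the adjusted p was again 0.71 (edgeR). Stag1, which encodes a cohesin subunit, was at 223 and 227 CPM in WT and 128 and 162 in KO (-0.63 ± 0.19). Tmx4, a thioredoxin-related membrane protein, was at 48.4 and 37.7 in WT and 26.5 and 23.5 in KO (-0.78 ± 0.22). Zfp936, a zinc finger gene, was at 8.31 and 10.4 in WT and 2.94 and 2.85 in KO (-1.68 ± 0.50). The genes of this paragraph were also picked among those with no overlap between the groups, so that is not a result. Tmed5, a cargo receptor of the secretory pathway, Tmem47, Cnksr2, a scaffold of Ras signalling, and the locus 4632427E13Rik had log2 differences of -1.10, -1.12, -1.08 and -1.36. With the GC trend out Tmed5 went to -0.59, Tmem47 to -0.71, Tmx4 to -0.52 and Stag1 to -0.38. Zfp936 went to -1.27, Cnksr2 to -0.86 and 4632427E13Rik to -0.97. The clone-named gene RP23-27C10.2 was at 7.75 and 2.35 CPM in WT and 0.105 and 0.238 in KO. Groups that do not overlap are common in these data: both KO libraries were above both WT libraries in 3437 genes (19.6%) and below them in 3725 (21.3%).

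The 4 libraries expressed germ cell genes and genes of undifferentiated spermatogonia, and none of these passed the test between the genotypes. Piwil2, which the reporter is named after, a member of the piRNA pathway that silences transposons, was at 1777 and 2094 CPM in WT and 2414 and 2327 in KO. Ddx4, an RNA helicase of germ cells, was at 474 and 559 in WT and 380 and 456 in KO. Per kilobase of exon, Zbtb16, a transcription factor needed for stem cell upkeep, was at 186 and 129 CPM in WT and 137 and 157 in KO. On the same scale the RNA-binding protein gene Lin28a was at 100 and 92.9 in WT and 107 and 116 in KO. Ret, the co-receptor for GDNF, was at 64.1 and 56.1 in WT and 78.1 and 58.6 in KO. Its partner Gfra1 was at 17.9 and 14.8 in WT and 16 and 16.6 in KO. Nanos2, a repressor of differentiation, was low, at 3.3 and 4.61 in WT and 5.7 and 5.93 in KO. For Zbtb16, Ret and Gfra1 the genotypes overlapped, and for Lin28a and Nanos2 the KO libraries lay above the WT pair without passing the test.

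Of the 30 undifferentiated genes tested, 0 passed between KO and WT. In 11 both KO libraries were higher and in 6 both were lower, against 19.6% and 21.3% of all genes. The median log2 difference was 0.20, beside -0.01 for all genes. It was -0.02 with the GC trend out. By p, the leading members were Nxf2, an X-linked RNA export factor, and Nanos3, an RNA-binding protein. Nxf2 was at 378 and 457 CPM in WT and 252 and 344 in KO (-0.49 ± 0.22). Nanos3 was at 34.4 and 43.1 in WT and 67.9 and 52.5 in KO (0.64 ± 0.29). With the GC trend out they were at -0.27 and 0.39. Over 12, 18 and 48 h Nanos3 was higher in KO and passed (log2 difference 1.66, adjusted p = 3e-06, edgeR). Sox3, a factor of progenitor spermatogonia, was at 122 and 137 CPM in WT and 235 and 206 in KO (0.77 ± 0.35, and 0.30 with the GC trend out).

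The 0 h state was also set against 12 h after retinoic acid, tested as the mean of both genotypes, where 3576 of all genes passed (20.4%), of which 1735 rose (9.9%) and 1841 fell (10.5%), in edgeR's quasi-likelihood test. Of the 30 undifferentiated genes, 19 fell and 1, the pluripotency factor gene Sall4, rose, with a median log2 change of -1.29 beside 0.01 for all genes. Zbtb16 fell by 1.53 ± 0.19 and Ret fell by 1.72 ± 0.26 on the log2 scale. Nanos2 fell by 3.19 ± 0.46, Etv5, a target of GDNF signalling, fell by 2.13 ± 0.28, and Dusp6, a feedback phosphatase of the MAPK pathway, fell by 2.46 ± 0.21. Gfra1 had a change of 0.34 ± 0.20 and did not pass. By size, the genes that fell the most were led by Il20ra, a cytokine receptor subunit, from 4.69 to 7.41 CPM in the 0 h libraries to 0 to 0.689 at 12 h. Nr2e1, an orphan nuclear receptor of neural stem cells, went from 37.6 to 51.9 CPM to 1.66 to 3.31.

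**Figure D2:**
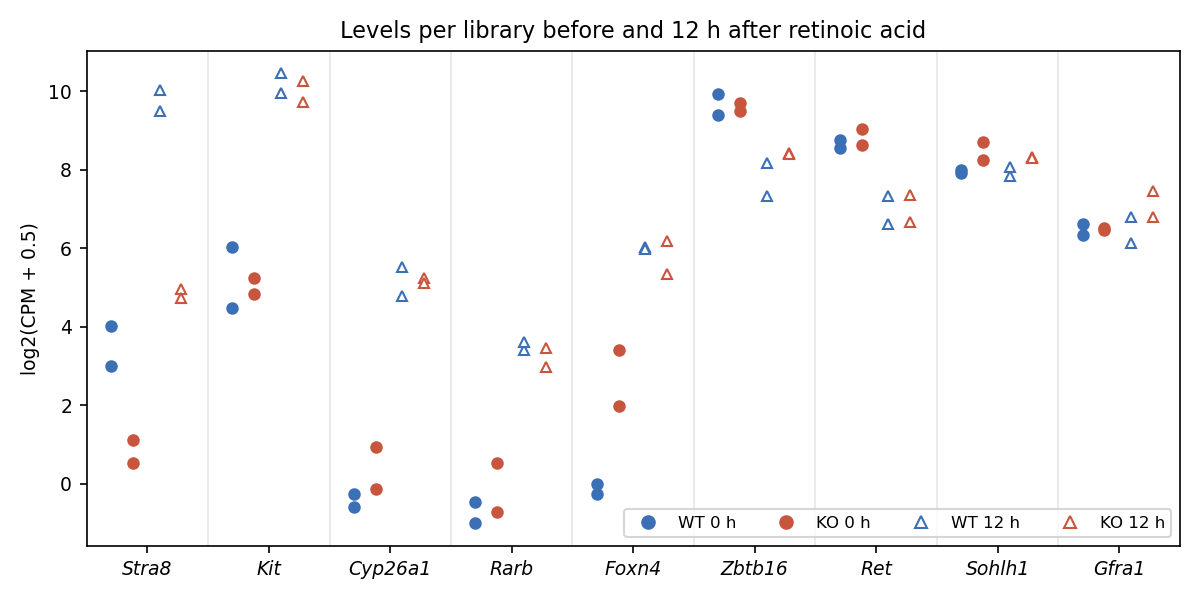
Level of 9 genes in each library, as log2(CPM + 0.5), with WT in blue and KO in red, 0 h as filled circles and 12 h as open triangles. Each point is 1 library. The genotypes overlap at 0 h for Kit, Rarb, Zbtb16, Ret and Gfra1, and lie apart for Stra8, Foxn4, Cyp26a1 and Sohlh1. At 0 h Cyp26a1 rests on 3 and 1 reads in WT and 4 and 6 in KO, near the limit of detection.

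Genes of differentiating spermatogonia were in part already on at 0 h. Sohlh1, a transcription factor that drives spermatogonial differentiation, was at 254 and 242 CPM in WT and 419 and 306 in KO (0.55 ± 0.22, and 0.25 with the GC trend out). Per kilobase it was at 197 and 188 in WT and 325 and 237 in KO, the highest on that scale among the 16 genes of this list. Kit was at 22 and 65.2 CPM in WT and 27.9 and 37.5 in KO. The KO values lay between the WT values, and the log2 difference was -0.41 ± 0.37. Leaving out WT replicate 2 turned it to 0.53. Per kilobase Kit was at 2.47 to 7.32, far below Sohlh1. Dnmt3b, a de novo DNA methyltransferase, was at 166 and 208 CPM in WT and at 150 in both KO libraries (-0.31 ± 0.17). Of the 16 genes, 0 passed between the genotypes, and the median log2 difference was 0.10. Without overlap 5 were higher and 1 lower, where 19.6% and 21.3% of all genes were. By 12 h Kit had risen by 4.90 ± 0.29 and the cyclin gene Ccnd2 by 2.94 ± 0.18 on the log2 scale. Altogether 4 genes of the list rose and 1, Dnmt3a, fell.

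The best known targets of retinoic acid were almost silent at 0 h in both genotypes. Cyp26a1, which breaks retinoic acid down, was at 0.337 and 0.168 CPM in WT and 0.42 and 1.43 in KO. Rarb, a retinoic acid receptor whose own gene responds to the ligand, was at 0.225 and 0 in WT and 0.105 and 0.95 in KO. Both were near the limit of detection, and their log2 differences of 1.48 ± 1.06 and 1.48 ± 1.15 did not pass. By 12 h Cyp26a1 stood at 26.9 to 45.7 CPM and Rarb at 7.44 to 11.7 over the 4 libraries, and both rose (log2 changes of 6.24 ± 0.52 and 5.29 ± 0.56, adjusted p = 2.6e-08 and 4e-07, edgeR). Exons of Rarb overlap those of another gene. The promoters below, from RefSeq on GRCm38.p6, run from 250 bases before to 50 after the annotated start. They belong to 4 of the genes that rose by 12 h, each with a half-site. Stra8 is at chr6:34920698-34920997 (plus), Cyp26a1 at chr19:37697558-37697857 (plus), Rarb at chr14:16575427-16575726 (minus) and Foxn4 at chr5:114273712-114274011 (minus). They are written 5′ to 3′ on the strand of the gene, with capitals for half-sites of retinoic acid receptors on either strand.
Stra8: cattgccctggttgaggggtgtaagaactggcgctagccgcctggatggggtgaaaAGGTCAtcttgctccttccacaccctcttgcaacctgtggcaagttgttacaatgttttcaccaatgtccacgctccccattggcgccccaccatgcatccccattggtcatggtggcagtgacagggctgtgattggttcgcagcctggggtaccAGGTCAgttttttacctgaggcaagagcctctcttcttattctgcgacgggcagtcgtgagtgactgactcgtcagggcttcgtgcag
Cyp26a1: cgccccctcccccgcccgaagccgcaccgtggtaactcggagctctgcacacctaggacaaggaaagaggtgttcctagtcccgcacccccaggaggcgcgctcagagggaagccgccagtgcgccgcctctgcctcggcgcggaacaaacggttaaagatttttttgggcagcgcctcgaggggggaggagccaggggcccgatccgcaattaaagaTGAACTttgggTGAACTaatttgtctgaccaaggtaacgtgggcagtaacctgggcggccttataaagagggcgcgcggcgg
Rarb: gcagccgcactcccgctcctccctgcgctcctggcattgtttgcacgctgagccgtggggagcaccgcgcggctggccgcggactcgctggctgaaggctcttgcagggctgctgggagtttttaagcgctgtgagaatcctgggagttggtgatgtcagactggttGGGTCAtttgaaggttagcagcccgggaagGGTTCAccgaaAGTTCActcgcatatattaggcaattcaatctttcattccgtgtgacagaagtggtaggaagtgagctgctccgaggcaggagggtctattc
Foxn4: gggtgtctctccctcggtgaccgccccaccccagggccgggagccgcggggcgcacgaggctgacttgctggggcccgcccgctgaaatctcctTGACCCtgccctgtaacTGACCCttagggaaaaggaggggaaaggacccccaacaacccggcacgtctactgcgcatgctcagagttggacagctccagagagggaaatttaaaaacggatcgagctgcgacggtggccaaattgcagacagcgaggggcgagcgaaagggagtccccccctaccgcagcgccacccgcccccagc
The half-sites searched, on both strands, were AGGTCA, its variant GGGTCA, and the forms AGTTCA with T inside and also GGTTCA. Cyp26a1 and Rarb each held a pair in the same direction with 5 bases between them, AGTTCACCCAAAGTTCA on the minus strand of Cyp26a1 and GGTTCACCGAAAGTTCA in Rarb. Stra8 and Foxn4 held 2 half-sites each and no such pair. Kit, which also rose by 12 h, held 0 half-sites and 0 pairs in both of its annotated promoters, which are not shown. Of 32544 promoters, 43.7% held a half-site and 0.593% a pair 1, 2 or 5 bases apart, so single half-sites are common. A match describes letters in this window and is not a site shown to be bound.

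In the wider retinoic acid list 0 of 25 genes tested passed between the genotypes at 0 h. Without overlap 6 were higher and 2 lower, where 19.6% and 21.3% of all genes were. The median log2 difference was 0.22 (-0.01 with the GC trend out). Receptors were present: Rarg was at 123 and 109 CPM in WT and 135 in both KO libraries, Rara at 80.7 and 52.1 in WT and 89.2 and 69.4 in KO, and Rxra at 225 and 205 in WT and 259 and 211 in KO. Crabp1, which binds retinoic acid in the cytoplasm, was at 53.9 and 82.1 in WT and 56 and 65.3 in KO. The genotypes overlapped for Rara, Rxra and Crabp1. Aldh1a2, a retinoic acid synthesis enzyme of the class that WIN 18,446 inhibits, was at 42.2 and 24.5 CPM in WT and 50.7 and 46.1 in KO (0.53 ± 0.26). Cyp26b1, a second degrading enzyme, was at 6.62 and 7.71 in WT and 15.8 and 7.36 in KO, high in KO replicate 1 only (0.74 ± 0.35, and 0.46 with the GC trend out). By 12 h 12 genes of the list rose and 2 fell. The retinol uptake receptor gene Stra6 rose by 4.41 ± 0.45 on the log2 scale.

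**Figure D3:**
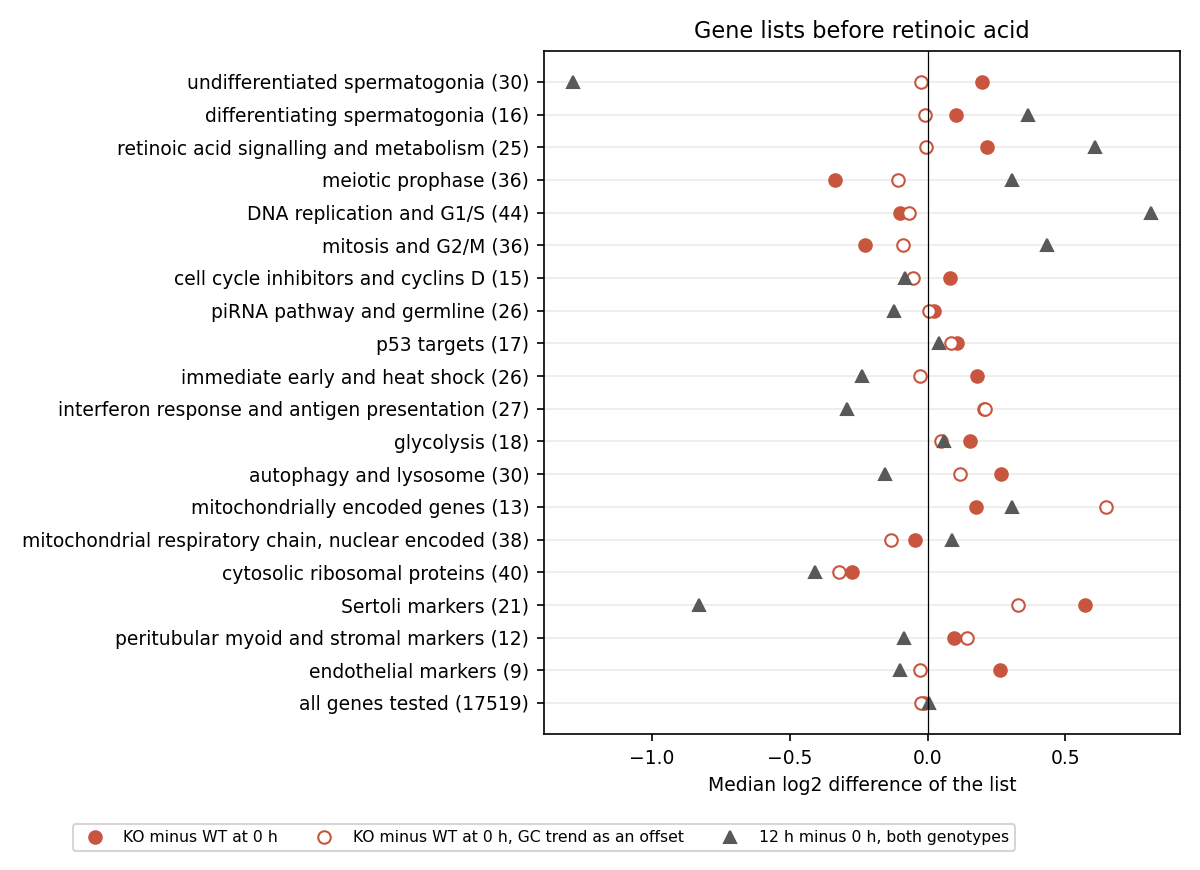
Median log2 difference of each gene list with at least 9 genes tested (number of genes in brackets). Filled circles are KO minus WT at 0 h, open circles the same with each library's GC trend taken out, and triangles 12 h minus 0 h over both genotypes. The 0 h medians lie between -0.34 (meiotic prophase) and 0.57 (Sertoli markers), and the undifferentiated list moves to -1.29 by 12 h.

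No gene of meiosis or mitosis passed between the genotypes at 0 h. Of 36 meiotic prophase genes tested, 0 passed, 1 was higher in KO without overlap (Rec8, a meiotic cohesin) and 15 were lower. Over all genes 19.6% were higher and 21.3% lower without overlap. The median log2 difference was -0.34, and -0.11 with the GC trend out, for a list whose median transcript GC content was 43% against 49.9% for all genes. Hormad2, a meiotic axis protein, was at 21 and 19.6 CPM in WT and 12.9 and 12.4 in KO (-0.68 ± 0.23). Tex11, an X-linked crossover factor, was at 112 and 152 in WT and 62 and 79.6 in KO (-0.91 ± 0.32). Both lay apart, and with the GC trend out their log2 differences were -0.47 and -0.56. Sycp3, a protein of the chromosome axis, overlapped at 57.1 and 78.3 in WT and 36.9 and 64.6 in KO. By 12 h 12 of the 36 rose and 0 fell.

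DNA replication genes were mostly lower at 0 h than 12 h later. Of 44 DNA replication and G1/S genes, 34 rose and 0 fell by 12 h, with a median log2 change of 0.81. Between KO and WT at 0 h 0 of the 44 passed and the median was -0.10. In 5 both KO libraries were higher and in 9 both were lower, against 19.6% and 21.3% of all genes. Ccne1, a cyclin of the G1/S step, was at 11 and 14.1 CPM in WT and 22.3 and 18.3 in KO (0.71 ± 0.23). The replication factor gene Gins2 was at 14.3 and 14.9 in WT and 31.1 and 19 in KO, and its exons overlap a neighbouring gene. Both had KO libraries above the WT pair. Of 36 mitosis and G2/M genes 16 rose by 12 h, and between genotypes 0 passed. Without overlap 4 of 36 were higher and 9 lower, where 19.6% and 21.3% of all genes were, with a median of -0.23 (-0.09 with the GC trend out). Ect2, which drives cytokinesis, was at 68.5 and 66.1 CPM in WT and 39.9 and 43 in KO (-0.70 ± 0.29). Nusap1, a spindle protein, was at 21.4 and 34.7 in WT and 13.4 and 19.2 in KO (-0.79 ± 0.33). With the GC trend out these were -0.37 and -0.52. Among 15 cell cycle inhibitors and D cyclins, Rb1, the retinoblastoma gene, was at 170 and 146 in WT and 80.2 and 107 in KO (-0.76 ± 0.27, and -0.48 with the GC trend out). The Cdk inhibitor gene Cdkn2d was at 3.59 and 5.2 in WT and at 8.08 in both KO libraries.

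Of 26 piRNA pathway and germline genes 0 passed between genotypes, and the median log2 difference was 0.02. Without overlap 6 were higher and 7 lower, where 19.6% and 21.3% of all genes were. Spocd1, which links piRNAs to DNA methylation, was at 84.1 and 64 CPM in WT and 141 and 106 in KO (0.73 ± 0.23), and over 12, 18 and 48 h it was higher in KO and passed (0.87, adjusted p = 0.00027, edgeR). Dazl, an RNA-binding protein needed for germ cell development, was at 603 and 793 in WT and 388 and 501 in KO (-0.65 ± 0.28). With the GC trend out the 0 h differences of Spocd1 and Dazl were 0.48 and -0.22. Both genes lay apart between the groups at 0 h.

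Lists of general cell functions also held 0 genes that passed between KO and WT. Beside the counts without overlap below, 19.6% of all genes were higher and 21.3% lower in KO without overlap. The interferon and antigen presentation list had 11 genes higher and 4 lower without overlap of 27 tested, with a median of 0.20, and 0.21 with the GC trend out. In it, the class I antigen gene H2-D1 was at 21.2 and 15.9 CPM in WT and 39.3 and 29 in KO (0.88 ± 0.36), and the interferon signal transducer gene Stat2 at 61.6 and 61.5 in WT and 89.4 and 83.4 in KO (0.49 ± 0.21). Autophagy and lysosome genes were higher without overlap in 14 and lower in 4 of 30, with a median of 0.27 (0.12 with the GC trend out). The lysosomal enzyme gene Hexa was at 91.8 and 91 in WT and 134 and 122 in KO, and Wipi2, which acts in autophagosome formation, at 111 and 122 in WT and 173 and 137 in KO. Nr4a1, an immediate early nuclear receptor gene, was at 54.1 and 42.2 CPM in WT and 96.6 and 71.7 in KO (0.81 ± 0.23). Klf6 from the same list was at 12.9 and 13.4 in WT and 7.66 and 8.79 in KO. Bax, a p53 target that promotes apoptosis, was at 66.2 and 67.1 in WT and 138 and 89.1 in KO (0.77 ± 0.28, and 0.35 with the GC trend out), and Pmaip1, of the same list, at 32.9 and 26.8 in WT and 18 and 22.8 in KO. Of the glycolysis genes, Pfkl was at 6.29 and 7.38 in WT and 13.4 and 10.2 in KO, with a median of 0.15 over 18 genes (0.05 with the GC trend out). On the same correction the log2 difference of Nr4a1 went to 0.54, of Klf6 from -0.69 to -0.43, of Pmaip1 from -0.56 to -0.31, of Hexa from 0.49 to 0.27 and of Pfkl from 0.81 to 0.53.

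Genes of ribosomes and mitochondria varied between the libraries of a genotype. Of 40 cytosolic ribosomal protein genes, 0 were higher and 11 lower in KO without overlap, with a median log2 difference of -0.28. Over all genes 19.6% were higher and 21.3% lower without overlap. Rps20 was at 313 and 426 CPM in WT and 183 and 170 in KO (-1.06 ± 1.06), and Rplp1 at 316 and 462 in WT and 258 and 241 in KO. The list's summed CPM was 17897 and 24856 in WT and 17743 and 21370 in KO, which overlap. The 13 mitochondrially encoded genes summed to 19134 and 61230 CPM in WT and 48023 and 47495 in KO, low in WT replicate 1. All 7 WT libraries deposited in the same table as that replicate had a low mitochondrial share, 1.98 to 3.06% of reads against 3.21 to 8.56% in the other 21 libraries. Of 38 nuclear genes of the respiratory chain, 7 were higher and 6 lower without overlap, and Ndufb5, of complex I, had a log2 difference of -0.56.

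Markers of other testis cells were uneven in level, with Sertoli cell markers highest in 1 KO library. By mean CPM of the library total, the highest Sertoli marker was Ctsl at 83.9. The highest peritubular and stromal marker was Col1a1 at 308. Summed, the 21 Sertoli markers came to 131 and 200 CPM in WT and 335 and 205 in KO. The KO values were above the WT values, and WT replicate 2 and KO replicate 2 were nearly equal. Of the 21, 7 were higher and 0 lower in KO without overlap, against 19.6% and 21.3% of all genes. None passed, and the median log2 difference was 0.57 (0.33 with the GC trend out). Ctsl, a lysosomal protease that is also found outside Sertoli cells, was at 52 and 78.6 CPM in WT and 111 and 91.5 in KO. The anti-Müllerian hormone receptor gene Amhr2 was at 1.57 and 3.35 in WT and 9.34 and 4.99 in KO. Clusterin, Clu, was at 21.9 and 33.7 in WT and 102 and 38.5 in KO, and Cldn11, of the blood-testis barrier, at 0.674 and 2.01 in WT and 8.6 and 1.19 in KO, both high in KO replicate 1. The Sertoli factor genes Sox9 and Wt1 were at 3.03 to 5.98 and 10.7 to 13.6 CPM in all 4 libraries. Whether Sertoli cell RNA in KO replicate 1 has a part in any 0 h difference was not tested.

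The other somatic lists held few reads or rested on 1 gene. The 14 peritubular and stromal markers summed to 271 and 390 CPM in WT and 508 and 378 in KO. Col1a1, a collagen gene, made up 79.6% of this and was at 221 and 288 CPM in WT and 402 and 312 in KO (0.49 ± 0.23, and 0.18 with the GC trend out), and it fell by 2.01 ± 0.17 on the log2 scale by 12 h. Myh11, of smooth muscle, was at 4.94 and 13.6 in WT and 15.7 and 14.7 in KO. Leydig markers summed to 12.2 to 26.2 CPM, with Insl3 and Lhcgr at 0 in all 4 libraries, Star at 5.23 to 6.37 CPM and Nr5a1 at 1.9 to 8.71. Macrophage and leukocyte markers summed to 4.84 to 8.08 and erythroid markers to 0.979 to 6.94 CPM. Endothelial markers summed to 52.4 to 72.8, with Egfl7 and Kdr highest in KO replicate 1 at 9.86 and 7.34 CPM. Spermatid markers summed to 18.6 to 23.7, of which Izumo1 made up 61.1%, and Prm1, Prm2, Tnp2 and Tssk2 were at 0 in all 4. Of the 14 spermatid markers only these 4 were at 0 in all 4 libraries, and a count of 0 limits them only at this depth.

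Genes that differ between the genotypes after retinoic acid leaned the same way before it. The later difference was tested as the mean of 12, 18 and 48 h, on 12 libraries that share no sample with the 0 h comparison, and 1198 genes (6.84%) were higher and 1096 (6.26%) lower in KO. These counts rest on single libraries in part: without WT replicate 1 of 18 h 889 were higher and 495 lower, without KO replicate 1 of 18 h 627 were lower, and without WT replicate 1 or KO replicate 1 or 2 of 12 h, or WT replicate 1 or KO replicate 2 of 48 h, 609 to 706 were lower. Of the 1198, 907 (75.7%) had a positive log2 difference at 0 h, beside 48.8% of all genes, and both KO libraries were above both WT libraries in 502 (41.9%, against 19.6% of all genes). Of the 1096, 38.3% were positive at 0 h, and both KO libraries were lower in 323 (29.5%, against 21.3%). The sizes at 0 h were small, with medians of 0.25 and -0.09 where the later medians were 0.94 and -0.59. With the GC trend out, 70.8% and 27% were positive at 0 h beside 47.1% of all genes. For the later higher genes the 4 pairings of a KO with a WT library gave medians of 0.17 to 0.32, all positive. For the later lower genes they ran from -0.23 to 0.05, so 1 pairing, KO replicate 1 with WT replicate 2, was on the other side. Same-numbered WT libraries of different times deviated from their group means together (correlations across genes of 0.27 to 0.49 in 21 pairs of groups), and the part of this shared deviation in the count was not tested.

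**Figure D4:**
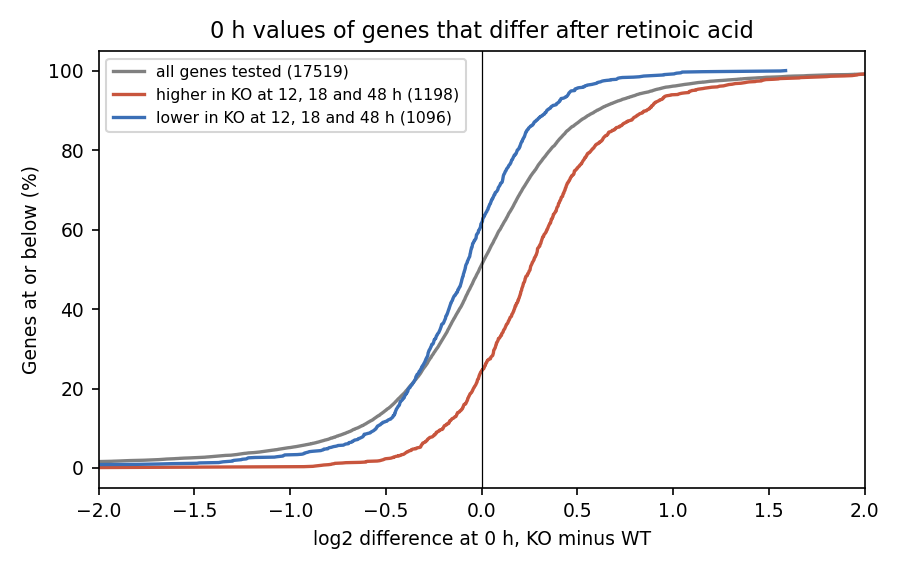
Cumulative share of genes (y axis, %) by their log2 difference KO minus WT at 0 h (x axis), for the 1198 genes higher in KO over 12, 18 and 48 h (red), the 1096 lower ones (blue) and all 17519 genes tested (grey). The red curve lies to the right of the grey one, with a median of 0.25, and the blue one crosses 0 to the left of it, with a median of -0.09.

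In a few genes the 0 h difference departed from the later one. By the test of the difference itself, 32 genes passed (0.183% of all, edgeR's quasi-likelihood test with Benjamini-Hochberg adjustment), 7 (0.04%) with a higher and 25 (0.143%) with a lower KO minus WT value at 0 h than at 12, 18 and 48 h. Leaving out KO replicate 1 of 0 h left 0 of them past the threshold, and leaving out the other 0 h libraries 1 at a time left 6 to 11 genes. Mycn, a growth-promoting transcription factor, was even at 0 h, at 87.6 and 79.3 CPM in WT and 77.9 and 87.4 in KO, and higher in KO later (log2 differences of -0.02 and 1.46). Rragd, a GTPase of amino acid sensing, was at 117 and 143 in WT and 107 and 114 in KO (-0.24, then 1.19). Havcr1, a cell surface receptor gene, was at 23 and 9.72 in WT and 14 and 13.3 in KO (-0.27, then 3.60). In these the genotypes overlapped or lay close at 0 h. C8g, which encodes a complement subunit, was the other way round, at 3.03 and 4.02 CPM in WT and 9.02 and 9.03 in KO (1.36 at 0 h, then -1.03).

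The GC content of transcripts moved with the 0 h difference. Across 11365 genes with at least 5 CPM and a known transcript, Spearman's rho between transcript GC content and the log2 difference was 0.61, against 0.17, 0.06 and -0.04 at 12, 18 and 48 h. It is given as a description over genes that share the same 4 libraries. From the lowest to the highest quintile of GC content the median log2 difference went from -0.30 to 0.28, and the share of genes with an unadjusted p under 0.05 was 13.2% and 12.9% in the outer quintiles and 2.2% in the middle one. Each pairing of a KO with a WT library gave a positive rho (0.26 to 0.61), and the KO libraries also differed from each other, with a rho of -0.47 for replicate 2 minus replicate 1. When each library's trend with GC was fitted and used as an offset, the rho fell to 0 within rounding, 0 genes passed and 655 had an unadjusted p under 0.05. The median of the undifferentiated list went from 0.20 to -0.02 and that of the meiotic list from -0.34 to -0.11, while that of the 13 mitochondrially encoded genes, with a median GC content of 37.1%, went from 0.17 to 0.65. Library preparation and genotype cannot be told apart here, with 2 libraries a side.

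**Figure D5:**
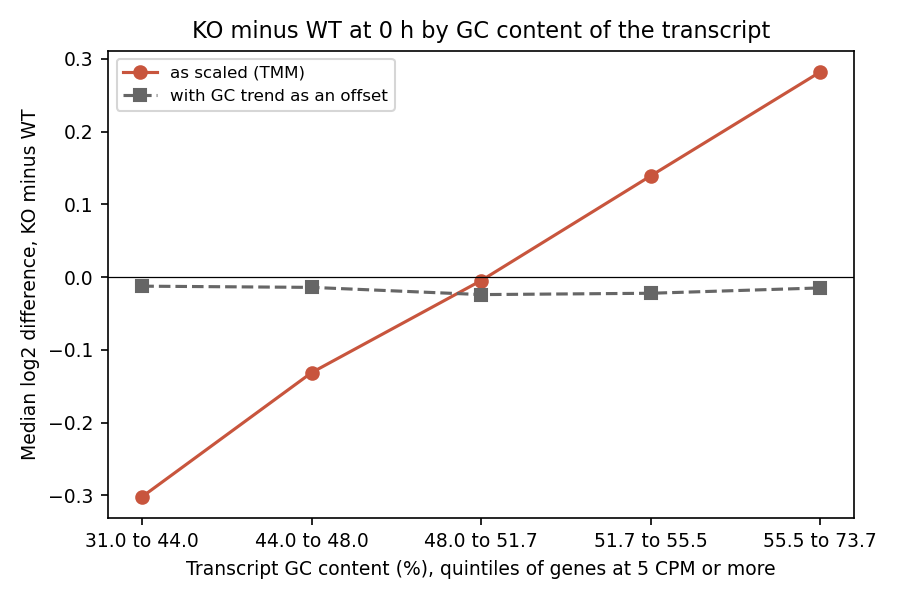
Median log2 difference KO minus WT at 0 h (y axis) in quintiles of genes by transcript GC content (x axis, range of each quintile in %). Red circles are the values as scaled by TMM and run from -0.30 to 0.28, and grey squares, with each library's GC trend as an offset, stay within 0.03 of 0.

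Genes beside Stra8 did not pass either. In a window of 5 Mb on each side, 69 genes were tested, 0 passed at 0 h and 8 had an unadjusted p under 0.05. Over all genes 6.81% had an unadjusted p under 0.05 (edgeR). Without overlap 7 of the 69 were higher and 22 lower in KO, where 19.6% and 21.3% of all genes were. The median log2 difference was -0.15. Over 12, 18 and 48 h 13 of the 69 passed, against 13.1% of all genes. The nearest tested genes were Wdr91, Agbl3 and Gm13864 before Stra8 and Cnot4, Nup205 and 1810058I24Rik after it. Agbl3, a cytosolic carboxypeptidase, was at 12.2 and 13.7 CPM in WT and 7.55 and 8.55 in KO (-0.69 ± 0.29). Nup205, of the nuclear pore, was at 322 and 370 in WT and 287 and 261 in KO (-0.33 ± 0.16). Both were lower in KO without overlap and also over 12, 18 and 48 h, where they passed (adjusted p = 0.048 and 0.0089, edgeR). Gm13864 was higher in KO without overlap, at 1.68 and 1.51 CPM in WT and 3.25 and 5.23 in KO (1.36 ± 0.88), and 1810058I24Rik had a log2 difference of 0.01. Cnot4 and Wdr91 had log2 differences of -0.24 and 0.04, and both signs turned with the GC trend out (0.18 and -0.21). That of Agbl3 went to -0.43.

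By chromosome, autosomal medians of genes at 5 CPM or more ran from -0.09 to 0.11. The 443 X-linked genes had a median of -0.17 (-0.06 with the GC trend out), with 40 higher and 165 lower without overlap. Over all genes at 5 CPM or more, 20.8% were higher and 22.4% lower. The 14 Y-linked genes had a median of -0.57 (-0.25 with the GC trend out), and 12 of them were lower in KO without overlap. These chromosomes were singled out after their values were seen. Usp9y, a deubiquitinase gene, was at 97.6 and 96.7 CPM in WT and 49.8 and 57.5 in KO (-0.86 ± 0.30). Eif2s3y, a translation factor needed for spermatogonial proliferation, was at 42.9 and 61.4 in WT and 23.5 and 34.2 in KO. Neither passed, and both have similar copies on the X chromosome that may share reads.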

How the data were processed

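PolyA RNA of sorted germ cells was sequenced on an Ion Proton, per the labels' protocols. The submitters' processing notes name mm10, TopHat, Bowtie and Cufflinks, while versions, strand use and the counter are not given in the sources used here. Whole-number counts of reads by gene symbol were deposited in a first and a second table, which hold 1 library of each group. A second pair of deposited tables is named as FPKM but holds CPM, counts divided by the library total, and was used only to check the counts: all 4 columns of 0 h matched within 0.001 CPM, with WT numbers equal and KO numbers exchanged between the pairs of tables. Libraries are numbered as in the count tables. The KO columns of 72, 96 and 120 h in the second count table matched neither CPM column of their group. These libraries held 913055 to 1078460 reads in genes and were kept in the fit of all 28 libraries. On libraries of 0 to 48 h only, without a block, the count of genes between KO and WT at 0 h was also 0. 27 features with date-like names, and in WT replicate 1 the reads outside genes (33.1% with no feature, 15.4% not uniquely aligned), were left out.

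Counts of all 28 libraries were fitted in edgeR 4.0.16 (R 4.3.3) with 14 group means, TMM scaling, the default expression filter and its robust quasi-likelihood test. P-values were adjusted by Benjamini-Hochberg over the 17519 genes kept, at a threshold of 0.05. Compared were KO and WT at 0 h, the mean of KO vs WT over 12, 18 and 48 h, their difference, and 12 h vs 0 h over both genotypes. DESeq2 1.42.0, other scalings and filters, fewer libraries, replicate blocks and GC and length offsets (lowess, span 0.3) were alternatives; the offsets, the block in WT only and the block on 0 h or 0 to 48 h libraries were chosen after seeing the data. Scripts were tested on simulated data. GC content, coordinates and exon length are from GENCODE on GRCm38. Correlations of log2 levels and of deviations used edgeR's log2 CPM with a small prior count. Counts of genes over 2-fold and differences between single libraries used log2(CPM + 0.5). Either scale understates differences of low genes. Same-numbered KO and WT libraries at 0 h deviated from their group means with a correlation of 0.03, so replicate numbers were not taken as pairs.

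The groups compared and the 23 gene lists were chosen with earlier results of these data known. Named genes are Stra8, Kit, Cyp26a1 and Rarb; the 8 with the smallest p in each direction at 5 CPM or more without overlap; for each list the 2 with the smallest p at 5 CPM or more, of which 1 is not reported here; the 3 nearest tested genes on each side of Stra8; and for 12 h up to 8 each way by size. All others were chosen after their values were seen.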

Additional observations from a re-analysis of the deposited data

Results flagged for a closer look

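In 32 genes the difference between KO and WT at 0 h departed from the same difference at 12, 18 and 48 h, by an edgeR quasi-likelihood test of the difference itself with Benjamini-Hochberg adjustment. The values below are the log2 difference at 0 h minus the later one. For immune, surface and proteasome genes they were Oasl2 (-1.63), Gbp3 (-2.16), Cd7 (-2.69), Havcr1 (-3.87) and Psmd7 (-1.38). For transcription factors, their co-factors and other nuclear or RNA-binding proteins they were Mycn (-1.48), Egr4 (-1.62), Nab2 (-1.28), Phf3 (-1.05) and Mbnl2 (-1.51). For signalling, membrane, structural and related genes they were Rragd (-1.43), Abcd2 (-2.33), Rin2 (-1.84), Igfbp6 (-2.62), Jph4 (-1.62), Enc1 (-1.55), Cass4 (-2.69), Fbxo40 (-2.13), Afap1l2 (-1.69) and Mobp (-2.12). The remaining genes that were lower at 0 h than later were E530001K10Rik (-3.38), Pramef12 (-1.12), Glipr2 (-2.13), 2010300C02Rik (-1.05) and Spryd3 (-1.11). The 7 that were higher at 0 h than later were C8g (2.39), Dnah10 (2.03), Efnb1 (2.08), Fam78a (1.28), Caskin2 (1.43), Rnf208 (2.16) and Mpped1 (1.43). Leaving out KO replicate 1 of 0 h left 0 genes past the threshold, without WT replicate 1 there were 6, without WT replicate 2 11 and without KO replicate 2 6.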

How the results depend on the processing

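The count of 0 genes between KO and WT at 0 h held under 15 of 19 alternatives, including all 4 that left out a 0 h library (lowest and highest count 0, in total, higher and lower). It became 73 with no filter on low counts (21 higher, 52 lower), where Stra8, Foxn4, C1ql1, Cyp46a1, RP23-27C10.2, Tex11, mt-Nd3 and Rps20 passed; the cause was not tested. With the replicate block it was 1 (0 higher, 1 lower). With the block on libraries of 0 to 48 h it was 3 (1 higher, 2 lower), and with the block on 0 h libraries only 9 (1 higher, 8 lower), where Stra8 (adjusted p = 0.0496, edgeR), Foxn4, RP23-27C10.2 and Rps20 passed. Replicate numbers did not pair KO with WT, so across genotypes these blocks join libraries that share only a number. Same-numbered WT libraries of different times did deviate together, with correlations across genes of 0.27 to 0.49. The main fit did not take this out, and with the block in WT only the 0 h count was 0.

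The later difference counted 4004 genes (2079 higher, 1925 lower) with the block on libraries of 0 to 48 h, 3488 (1844 higher) with the block in WT only, and 4091 (2137 higher, 1954 lower) with that block and the GC offset. Leaving out a library gave 1384 to 2347 genes, 840 to 1196 higher and 495 to 1218 lower.

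The 32 genes whose 0 h difference departed from the later one became 191 with no filter (55 higher, 136 lower) and 84 on libraries of 0 to 48 h (31 and 53). With the replicate block there were 50 (41 lower), with the crossed block 52 (11 higher, 41 lower), with the block on 0 to 48 h libraries 151 (60 and 91) and with the block in WT only 118 (35 and 83). With the GC offset there were 58 (51 lower), with GC and length 79 (69 lower), with the GC offset and the block in WT 177 (35 and 142), and with DESeq2 108 (32 and 76). DESeq2 size factors in edgeR gave 4 higher. Leaving out a library gave 0 to 41, 0 to 5 higher and 0 to 36 lower. The 12 h against 0 h count ran from 2371 to 3175 without a library, 1103 to 1512 higher and 1268 to 1688 lower.

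Of 1265 recomputed values of 67 named genes, 1234 kept direction and side of the threshold, 14 passed it newly and 17 reversed. Over the 4 fits that left out a 0 h library, the lowest and highest log2 differences were -0.998 and 0.53 for Kit, -0.29 and 4.45 for Rarb, -1.58 and 0.17 for mt-Nd3, -1.07 and 1.11 for Nr5a1, -0.0069 and 0.78 for Egfl7, -0.33 and 0.70 for Kdr, -0.38 and 0.14 for Izumo1, -0.31 and 0.37 for 1810058I24Rik, and -0.11 and 0.18 for Wdr91. With the GC offset Wdr91 was -0.21 and Cnot4 0.18, with GC and length -0.22 and 0.17, and with GC and the block in WT -0.21 and 0.19.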
